A study of Homo sapiens with 12 samples.

Results

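The ZNF genes are the largest named group of zinc finger genes, and 300 of them were followed here across 12 expression arrays of JIMT1 breast cancer cells. They were found by symbol (ZNF, a number and an optional letter). Each had a probe that both arrays of some group detected (p-value under 0.01), and the brightest such probe stood for the gene. Of 483 ZNF genes with a probe, 319 met this rule and the 300 brightest were kept, out of 10970 genes of all kinds that met the same detection rule and were tested. The members were thus chosen by the detection and the brightness of their probes, and these values are given without a test. At the limit, ZNF778, ZNF624 and ZNF765 were inside with a mean intensity of 124.4, 124.1 and 123.7, and ZNF276, ZNF611 and ZNF628 were outside with 123.3, 123.2 and 123.

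JIMT1 is a HER2-amplified line described as negative for the estrogen and progesterone receptors and resistant to trastuzumab. The 6 groups were MG4d and MG7d (4 and 7 days on and in Matrigel, a basement membrane gel), PH4d and PH7d (polyHEMA, a coating that keeps cells from attaching, for 4 and 7 days), xenografts taken 43 days after injection into the fat pad of BALB/C-nude mice, and 2D7d (7 days as a monolayer). All groups are the same unmodified cell line, with 2 biological replicates each. Dispase was used to free the cells from Matrigel, whose cultures also had less serum than the others, and the xenograft cells were injected with Matrigel, so these steps cannot be told apart from the growth condition.

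Most ZNF proteins carry a row of C2H2 fingers, small folds around a zinc ion that read short stretches of DNA. Many also have a KRAB domain, which recruits the corepressor TRIM28 and, through it, the histone methyltransferase SETDB1, and such proteins are best known for silencing transposable elements. Their genes multiplied by tandem duplication and lie in clusters, most of them on chromosome 19. Other ZNF proteins are activators, RNA-binding proteins or ubiquitin ligases that share only the name.

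The arrays did not fall apart by group alone. Probes detected per array numbered 16407 and 15533 in MG4d, 16900 and 16120 in MG7d, 18430 and 14530 in PH4d, 17739 and 15093 in PH7d, 17559 and 17316 in xenografts and 13952 and 14784 in 2D7d. The replicates of each polyHEMA group lay far apart, with 38.3% of all genes at least 2-fold apart in PH4d and 30.6% in PH7d, against at most 2.01% in any other group. All 6 epithelial markers (ERBB2, EPCAM, KRT8, KRT18, KRT19 and CDH1) were detected on all 12 arrays, and PGR on 0. ESR1 was detected on all 12 arrays, at 6.12 to 7.86 on the log2 scale. In 2D7d it had 6.38 and 6.12, where the lowest detected levels of any probe were 6.27 and 6.05. These are RNA signals, while the line's description is of receptor status, which was not measured here. Of 6 fibroblast markers, 3 were detected on both xenograft arrays, with a summed intensity of 521 to 674 in xenografts and 187 to 275 over the culture groups, while PDGFRB was detected on 0 arrays. The 4 endothelial markers had a summed intensity of 333 to 404 in PH4d and PH7d and 128 to 209 elsewhere, with PECAM1 detected on 11 arrays and VWF and KDR on 0. The leukocyte list of 5 genes summed to 1220 to 1270 in xenografts and 692 to 1320 over the cultures (858 to 1320 in PH4d and 826 to 832 in 2D7d), with AIF1 and CD68 called higher and CD14 lower in xenografts and PTPRC detected on 0 arrays, and the 3 adipocyte genes summed to 90.5 to 124 on all arrays, with ADIPOQ on 0. The probes are of human sequence and the xenograft hosts were mice, and whether any marker or ZNF probe read mouse RNA was not tested. The part of other cell types in the ZNF results was not tested either.

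The ZNF genes were low-signal genes, and their level split the arrays. After normalization, the median log2 intensity of the 300 genes was 7.33 and 7.28 in MG4d, 7.42 and 7.38 in MG7d, 7.43 and 6.82 in PH4d, 7.42 and 6.84 in PH7d, 7.45 and 7.49 in xenografts and 6.83 and 6.74 in 2D7d. Both 2D7d arrays and replicate 2 of both polyHEMA groups were thus low, and the other 8 arrays were high with no overlap. Members entered through the groups where they were detected, and over the 164 detected on all 12 arrays the gap was narrower, with medians of 7.79 to 7.96 on the 4 low arrays and 8.04 to 8.38 on the other 8. Over all genes tested the median lay between 8.17 and 8.28 on every array. The share of ZNF genes detected moved in the same way, with 97.3% and 98% in xenografts and 63.3% and 65.7% in 2D7d (all genes, 94.3% and 94.2%, against 80.1% and 81.8% in 2D7d), while 98.7% were detected on PH4d replicate 1 and 65.7% on PH4d replicate 2. Of the 300 genes, 164 (54.7%) were detected in all 6 groups, against 70.6% of all genes tested. In bulk samples, fewer cells that express a gene and less RNA per cell cannot be told apart.

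**Figure D1:**
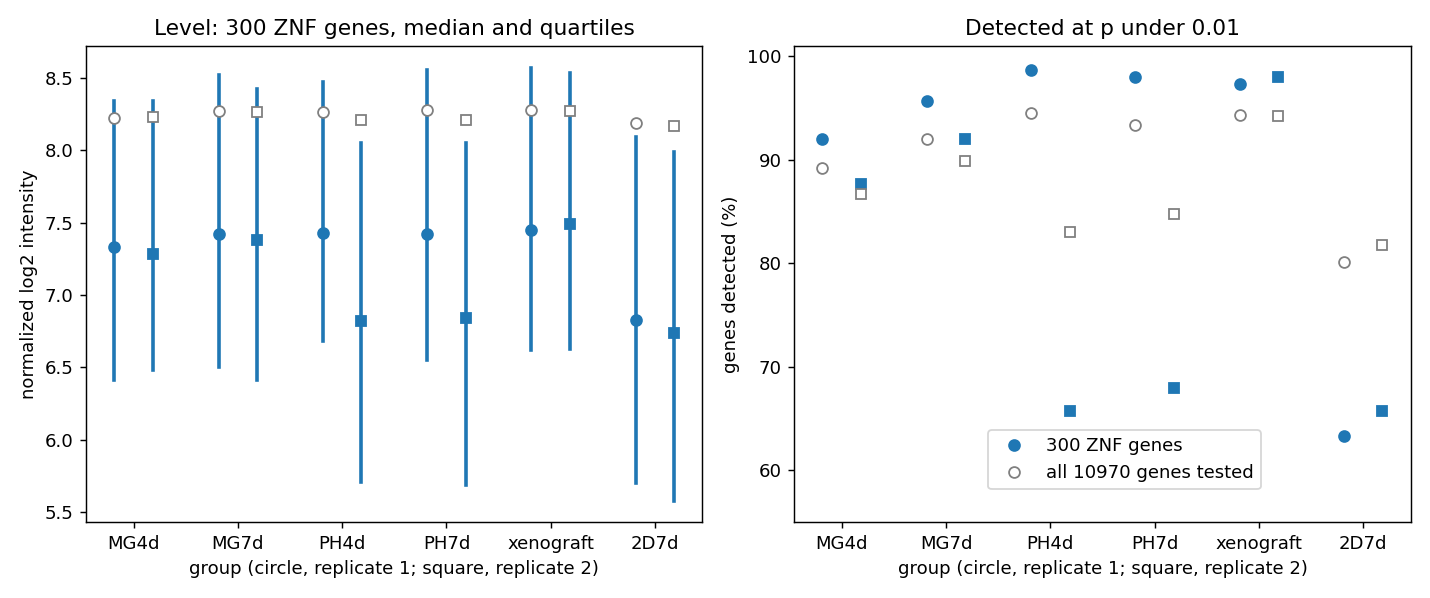
Left, the median (symbol) and quartiles (line) of the normalized log2 intensity of the 300 ZNF genes on each array, with the median of all genes tested as open symbols. Right, the percentage of genes detected. On both 2D7d arrays and on replicate 2 of PH4d and PH7d the ZNF median was 6.74 to 6.84 and 63.3% to 68% were detected, and on the other 8 arrays it was 7.28 to 7.49 and 87.7% to 98.7%.

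Within polyHEMA the ZNF genes differed mostly in one direction. In PH4d, 162 of 300 (54%) differed at least 2-fold between the replicates, 130 of them higher on replicate 1 (43.3%, against 21.8% of all genes) and 32 higher on replicate 2 (10.7%, against 16.5%). In PH7d the count was 124 (41.3%), with 108 higher on replicate 1 (36%, against 19.2% of all genes) and 16 on replicate 2 (5.33%, against 11.4%). In MG4d, MG7d, xenografts and 2D7d it was 0 to 7. Members that entered through brighter groups widen this skew, and it was weaker among the 164 detected on every array. Of these, 51 were at least 2-fold higher on replicate 1 in PH4d (31.1%, against 18% of all such genes) and 27 on replicate 2. In PH7d, 46 were higher on replicate 1 (28%, against 16.1%) and 14 on replicate 2. ZNF33B was among the farthest apart, at 8.24 and 5.11 in PH4d and 8.41 and 4.85 in PH7d, with replicate 2 not detected at either time. ZNF148, a GC-box binding factor, had 10.37 and 7.46 in PH4d and 10.22 and 6.88 in PH7d. ZNF385A, a regulator of p53 target choice, ran the other way, with 6.4 and 8.22 in PH4d and 6.38 and 8.53 in PH7d. Replicate 2 was therefore the one nearer to 2D7d for each of these genes, which had 6.01 and 5.69 (ZNF33B), 7.72 and 6.85 (ZNF148) and 7.19 and 7.85 (ZNF385A) in 2D7d.

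The comparison of xenografts with 2D7d asks which genes differ between tumors in the animal and the monolayer. In the linear model over all 12 arrays (limma, Benjamini-Hochberg over 10970 genes, with a call where the adjusted p was under 0.05 and the change 2-fold or more), 87 of 300 ZNF genes (29%) rose and 21 (7%) fell, while 16.5% of all genes tested rose and 14.6% fell. The median log2 fold change was 0.80 over the ZNF genes and 0.01 over all genes. Of the 87 that rose, 44 were detected on neither 2D7d array, and such genes entered only through a group where they were brighter. Among the 176 detected on both arrays of both groups, 36 rose (20.5%) and 20 fell (11.4%), against 12.4% and 16.4% of all genes with the same detection, and the median was 0.22, beside -0.22. The spread in this model includes that between the polyHEMA replicates. For ZNF25 the standard error was 0.95 with all arrays and 0.16 with the 8 arrays outside polyHEMA. Fitted on the 8 arrays outside polyHEMA, 137 ZNF genes rose (45.7%) and 30 fell (10%), against 25.5% and 18.4% of all genes. All 108 calls of the 12-array fit were among them. Both fits have the same xenograft and 2D7d values and fold changes and differ only in the spread, so this overlap is no separate support. Among members detected on both arrays of both groups, 32.4% then rose and 15.9% fell, against 19.8% and 20.9% of all such genes. With median scaling in place of quantile normalization, 102 rose and 9 fell. That scaling put the median of all genes at 0.17, and the median of the ZNF genes 0.99 above it. Without any single xenograft or 2D7d array the 12-array fit called 0 to 2 ZNF genes, and the 8-array fit 152 to 175. Calls over all genes were not counted in those fits or with median scaling, so these counts have no background beside them.

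**Figure D2:**
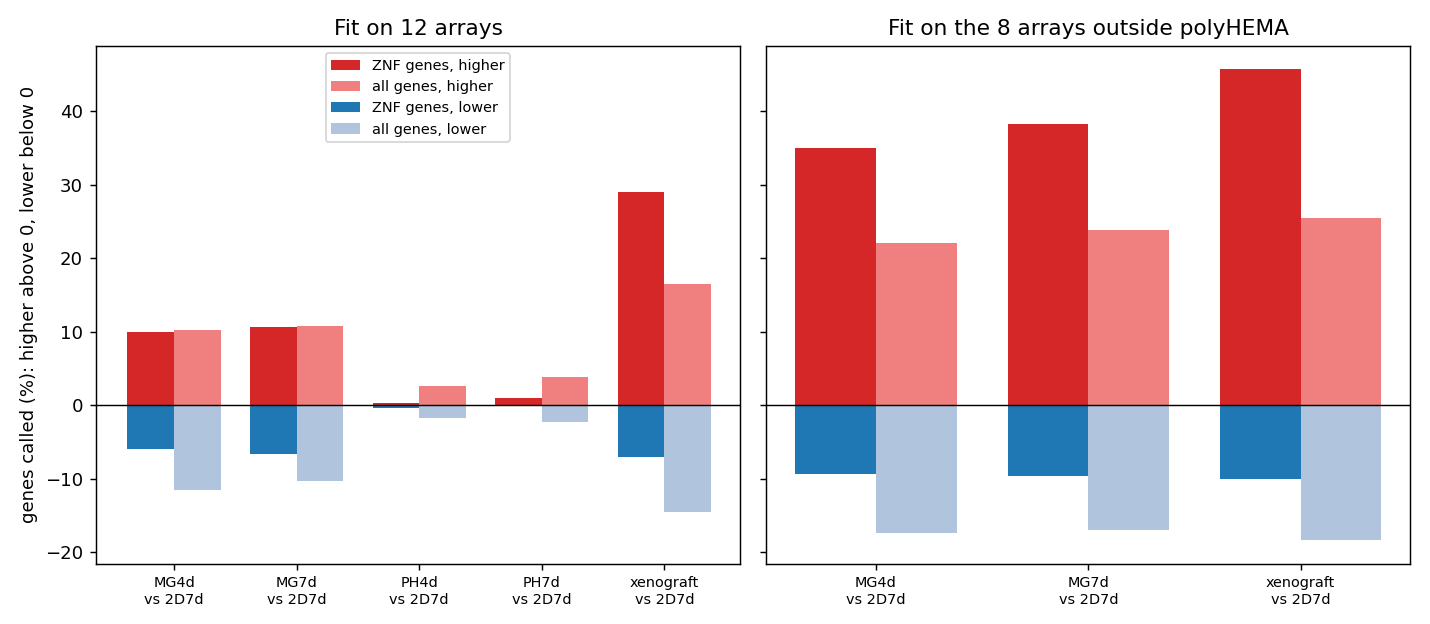
Percentage of genes called higher (above 0) and lower (below 0) than 2D7d, for the 300 ZNF genes (dark bars) and all genes tested (light bars), in the fit on 12 arrays and in the fit on the 8 arrays outside polyHEMA. In xenografts 29% of ZNF genes rose against 16.5% of all genes, and 45.7% against 25.5% with 8 arrays.

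The largest rises in xenografts were in genes at or near background in the monolayer. ZNF25 had 8.28 and 8.17 in xenografts and 4.69 and 4.51 in 2D7d, where neither array detected it. It was at least 4.19-fold higher (adjusted p = 0.0267, limma). ZNF350, a KRAB repressor that binds BRCA1, had 8.86 and 8.98 in xenografts, against 5.99 and 5.16 in 2D7d, again not detected there, and was at least 6.76-fold higher (adjusted p = 0.038, limma). The arrays of the 2 groups did not overlap for either gene. ZNF83 (7.99 and 8.26 in xenografts, 5.08 and 4.72 in 2D7d), ZNF471 (7.72 and 7.39, against 4.48 and 4.59 in 2D7d), ZNF84 (7.89 and 8.39, against 5.18 and 5.13 in 2D7d) and ZNF558 (8.29 and 8.21, against 5.53 and 5.07 in 2D7d) were likewise not detected in 2D7d. They were at least 3.9-fold, 2.62-fold, 3.94-fold and 4.25-fold higher, with adjusted p-values of 0.0207 to 0.0371 (limma). A second ZNF471 probe gave a log2 fold change of 1.58 and no call (adjusted p = 0.0816). All 6 genes lay above 2D7d on both Matrigel arrays at each time too.

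The falls were smaller, and 20 of the 21 genes were detected on both arrays of both groups. ZNF488 had 7.27 and 7.13 in xenografts and 8.71 and 9.38 in 2D7d, a log2 fold change of -1.85 ± 0.46 (SE; adjusted p = 0.0237, limma). ZNF574 had 5.86 and 5.69 in xenografts and 7.31 and 7.76 in 2D7d (-1.76 ± 0.47, adjusted p = 0.0278, limma). ZNF296, one of the 20 brightest probes, had 8.79 and 8.82 in xenografts and 10.11 and 10.58 in 2D7d (-1.54 ± 0.44). In none of these genes did a xenograft array reach the lower 2D7d array. ZNF174, which has a SCAN dimerization domain, had 7.03 and 6.78 in xenografts and 8.31 and 8.42 in 2D7d, a fall of -1.46 ± 0.24 with the smallest adjusted p of the 12 genes with the largest changes (0.00699, limma). ZNF282 had 8.45 and 8.06 in xenografts and 9.56 and 9.8 in 2D7d. ZNF48 was the exception in level, since it was detected in 2D7d (6.79 and 7.54) and on neither xenograft array (4.98 and 5.12), and was at least 3.07-fold lower in xenografts (adjusted p = 0.0311, limma). In the fit on 8 arrays the adjusted p-values of these 12 genes were 1.21e-07 to 5.88e-05.

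**Figure D3:**
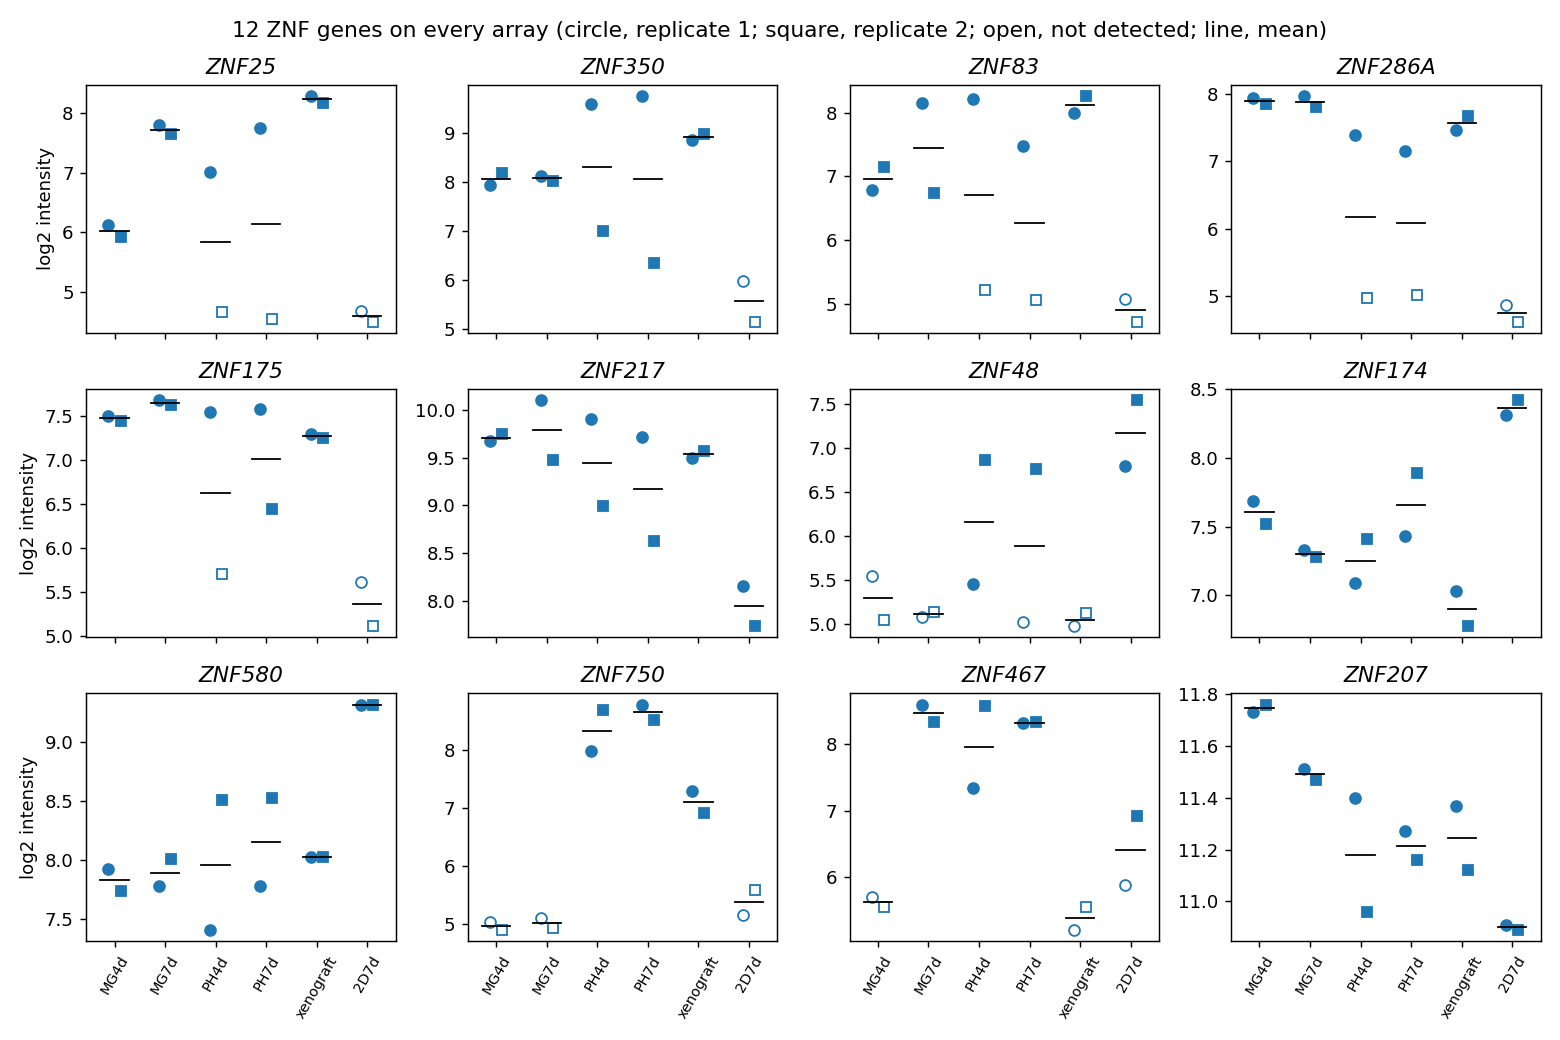
Normalized log2 intensity of 12 ZNF genes on every array, with replicate 1 as circles, replicate 2 as squares, arrays without detection as open symbols and the group mean as a line. ZNF25, ZNF350, ZNF83, ZNF286A and ZNF175 were not detected in 2D7d, ZNF48, ZNF174 and ZNF580 had their highest mean in 2D7d, and ZNF750 was highest in PH4d and PH7d.

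Chromosome 19 held 136 of the 300 genes and a larger share of rises. Of 136 members there, 51 rose in xenografts (37.5%) and 9 fell, with a median log2 fold change of 1.25, and of 164 members elsewhere 36 rose (22%) and 12 fell, with a median of 0.51. The 636 tested genes on chromosome 19 whose symbol does not begin with Z ran the other way. Of these, 30 were higher (4.72%) and 195 lower (30.7%), with a median of -0.84. Among members detected on all 12 arrays, 22 of 65 on chromosome 19 rose (33.8%) and 9 fell (13.8%). Of the 99 elsewhere, 14 rose (14.1%) and 10 fell (10.1%). Over all genes with the same detection 12.9% rose and 16.5% fell, so the rising share elsewhere was near the background. On chromosome 16, 1 of 21 members rose and 5 fell (median -0.62), ZNF48, ZNF174 and ZNF688 among them. Other genes of chromosome 16 were not counted, and over all genes tested 16.5% rose and 14.6% fell.

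Runs of neighbours along chromosome 19 differed in their calls. Over 9 runs with 79 members, 68 (86.1%) lay above 2D7d and 36 (45.6%) rose in xenografts, beside 109 (80.1%) and 51 (37.5%) of the 136 on the chromosome. In the run from ZNF577 to ZNF616 (ZNF577, ZNF649, ZNF613, ZNF350, ZNF615, ZNF614, ZNF432, ZNF841 and ZNF616) 7 of 9 members rose in xenografts. All 9 were above 2D7d, with fitted log2 fold changes of 1.42 to 3.35. The 3.35 is that of ZNF350, which was not detected in 2D7d, so it is no measured size. ZNF613 had 9.35 and 9.33 in xenografts and 6.96 and 6.84 in 2D7d. ZNF577 had 9.69 and 9.71 in xenografts and 8.47 and 8.1 in 2D7d. The 2 members of the run without a call, ZNF615 (2.76, adjusted p = 0.0581, limma) and ZNF841 (1.63, adjusted p = 0.0526), were called in the fit on 8 arrays. In the run from ZNF14 to ZNF91, 8 of 10 rose, 1 fell and 1 was not called. The one that fell, ZNF626, had 7.42 and 7.12 in xenografts and 8.22 and 8.47 in 2D7d. A second ZNF626 probe was also called lower (-1.24, adjusted p = 0.0298, limma). Among those that rose, second probes were not called for ZNF14 (-0.76, adjusted p = 0.0614, limma) or ZNF682 (0.22, adjusted p = 0.579). In the run from ZNF329 to ZNF446 the median was -0.32, with 3 of 8 higher and 1 lower. Few calls fell in the runs from ZNF529 to ZNF875 (1 of 6 rose), from ZNF45 to ZNF180 (2 of 12) and from ZNF28 to ZNF765 (2 of 10). Still, 5 of 6, 12 of 12 and 10 of 10 members of these runs lay above 2D7d. Their median log2 fold changes were 0.84, 1.34 and 1.93, so few calls do not mean that these runs stayed level. Such neighbours are often close paralogs, and a probe may read more than 1 of them, which was not tested.

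**Figure D4:**
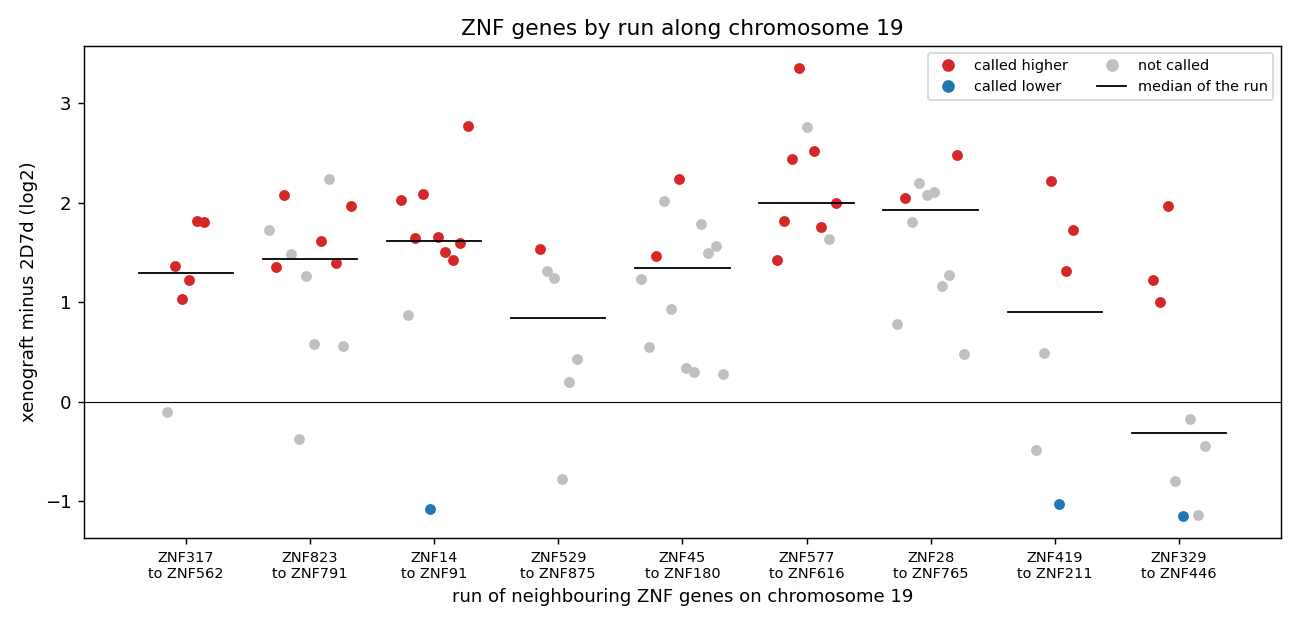
Log2 fold change of xenografts over 2D7d for the members of 9 runs of neighbouring ZNF genes on chromosome 19, in chromosome order within each run, with called genes in colour and the median of each run as a line. All 9 genes of the run from ZNF577 to ZNF616 lay above 0, and 5 of 8 in the run from ZNF329 to ZNF446 lay below it.

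Promoters were looked up for the members because many moved together. The RefSeq table for GRCh38.p14 (250 bases before to 50 after each start) held a promoter for 253 of the 300 genes. The letters CCGGAAG, the core of ETS factor sites, searched on both strands, stood in 40.7% of these, against 19.6% of the 8892 tested genes with a promoter and 10.7% of the 27305 symbols of the table. CCAAT stood in 47.8%, 37.4% and 35.7%, GGGCGG in 66%, 70% and 44.6%, and TATAAA in 1.98%, 5.72% and 12%. Among ZNF genes higher and lower in xenografts, CCGGAAG stood in 38.9% of 72 and 41.2% of 17, which are near each other. The median gene length was 23.7 kb for those that rose, 10.9 kb for the 21 that fell and 23.1 kb for those not called, beside 22.9 kb over all members and 27.6 kb over all genes tested. A match is only a description of these letters. The promoters that follow are those of 4 genes that rose in xenografts (ZNF616 and ZNF350 from one run, ZNF91 from another, and ZNF175) and of 2 that fell (ZNF688 and ZNF174), with CCGGAAG or its reverse complement in capitals. ZNF350 has neither in this window.
ZNF616 (GRCh38.p14, chr19:52139889-52140188, minus strand): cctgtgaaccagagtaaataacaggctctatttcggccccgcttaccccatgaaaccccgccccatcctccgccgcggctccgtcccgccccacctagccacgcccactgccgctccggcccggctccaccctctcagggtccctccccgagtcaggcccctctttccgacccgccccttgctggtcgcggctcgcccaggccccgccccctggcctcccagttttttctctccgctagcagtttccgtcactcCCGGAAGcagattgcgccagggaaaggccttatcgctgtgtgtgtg
ZNF350 (GRCh38.p14, chr19:51986791-51987090, minus strand): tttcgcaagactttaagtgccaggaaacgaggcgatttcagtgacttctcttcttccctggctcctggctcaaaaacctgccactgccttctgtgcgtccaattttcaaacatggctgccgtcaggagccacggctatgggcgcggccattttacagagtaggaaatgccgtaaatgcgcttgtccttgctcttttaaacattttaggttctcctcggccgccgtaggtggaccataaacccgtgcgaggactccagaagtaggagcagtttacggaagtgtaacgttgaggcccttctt
ZNF91 (GRCh38.p14, chr19:23395422-23395721, minus strand): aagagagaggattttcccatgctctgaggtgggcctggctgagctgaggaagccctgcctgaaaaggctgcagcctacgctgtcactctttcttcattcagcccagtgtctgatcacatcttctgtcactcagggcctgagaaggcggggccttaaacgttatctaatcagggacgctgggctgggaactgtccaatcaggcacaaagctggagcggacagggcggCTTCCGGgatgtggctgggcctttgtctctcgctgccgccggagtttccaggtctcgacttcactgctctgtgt
ZNF175 (GRCh38.p14, chr19:51571033-51571332, plus strand): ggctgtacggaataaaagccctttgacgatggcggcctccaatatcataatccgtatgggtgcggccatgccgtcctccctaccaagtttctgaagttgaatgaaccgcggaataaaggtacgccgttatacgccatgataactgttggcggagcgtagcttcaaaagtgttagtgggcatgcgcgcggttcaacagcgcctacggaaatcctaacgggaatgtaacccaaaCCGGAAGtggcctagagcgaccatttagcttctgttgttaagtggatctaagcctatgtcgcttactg
ZNF688 (GRCh38.p14, chr16:30571665-30571964, minus strand): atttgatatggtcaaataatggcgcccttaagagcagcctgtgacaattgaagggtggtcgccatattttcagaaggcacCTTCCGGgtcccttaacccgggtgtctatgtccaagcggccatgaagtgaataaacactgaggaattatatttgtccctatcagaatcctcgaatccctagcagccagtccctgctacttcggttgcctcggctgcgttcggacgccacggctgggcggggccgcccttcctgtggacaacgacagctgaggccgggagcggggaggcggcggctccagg
ZNF174 (GRCh38.p14, chr16:3400965-3401264, plus strand): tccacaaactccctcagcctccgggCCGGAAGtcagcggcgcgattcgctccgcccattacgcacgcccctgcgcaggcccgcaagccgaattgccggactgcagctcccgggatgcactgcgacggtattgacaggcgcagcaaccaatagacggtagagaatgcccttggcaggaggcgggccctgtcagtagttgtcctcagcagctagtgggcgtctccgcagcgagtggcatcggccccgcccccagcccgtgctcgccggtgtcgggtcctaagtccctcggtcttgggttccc

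Genes that hold the same letters moved in opposite directions. ZNF91, a repressor of SVA retrotransposons, had 8.9 and 8.56 in xenografts and 6.3 and 5.63 in 2D7d, a log2 fold change of 2.77 ± 0.8 (SE; adjusted p = 0.0326, limma). ZNF175 had 7.3 and 7.25 in xenografts, against 5.62 and 5.12 in 2D7d without detection, and was at least 2.17-fold higher (adjusted p = 0.0328, limma). ZNF688 had 6.77 and 6.47 in xenografts and 7.75 and 7.73 in 2D7d (-1.12 ± 0.36, adjusted p = 0.0402, limma). The arrays of xenografts and 2D7d did not overlap for any of the 3 genes.

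Matrigel was compared with 2D7d at each time, which shares the 2D7d arrays with the xenograft comparison. In MG4d, 30 of 300 ZNF genes (10%) rose and 18 (6%) fell, close to the 10.2% of all genes that rose and below the 11.5% that fell. In MG7d, 32 (10.7%) rose and 20 (6.67%) fell, against 10.8% and 10.3% of all genes. The median log2 fold change of the ZNF genes was 0.65 in MG4d and 0.74 in MG7d, beside -0.07 and 0 over all genes. Among members detected on both arrays of both groups, 10 of 170 rose and 14 fell in MG4d (5.88% and 8.24%, against 8.68% and 12.1% of all such genes), and 13 of 174 rose and 17 fell in MG7d (7.47% and 9.77%, against 8.55% and 11.6%). Their median was 0.15 in MG4d and 0.20 in MG7d, beside -0.22 and -0.18 over all such genes. In the fit on 8 arrays 35% rose and 9.33% fell in MG4d, against 22.1% and 17.4% of all genes, and 38.3% rose and 9.67% fell in MG7d, against 23.8% and 17%, so the rising shares stood above the background there and not in the 12-array fit. Among members detected on both arrays of both groups 23.5% rose and 13.5% fell in MG4d, against 18.9% and 18.6% of all such genes, and 27.6% rose and 14.4% fell in MG7d, against 19.7% and 19.3%. With median scaling 29 rose and 9 fell in MG4d, and 52 rose and 7 fell in MG7d, with the median of the ZNF genes 0.78 and 0.85 above that of all genes (0.05 and 0.18). Without any single Matrigel or 2D7d array the 12-array fit called 0 ZNF genes at either time, and the 8-array fit called 120 to 147 in MG4d and 134 to 169 in MG7d. Here too, calls over all genes were not counted without an array or with median scaling.

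ZNF286A and its near-identical copy ZNF286B had the largest rises in Matrigel. ZNF286A had 7.95 and 7.85 in MG4d, 7.97 and 7.81 in MG7d and 4.87 and 4.62 in 2D7d, where it was not detected. It was at least 3.34-fold higher in MG4d (adjusted p = 0.0278, limma) and at least 3.31-fold higher in MG7d (adjusted p = 0.0348). ZNF286B had 9.12 and 9.22 in MG4d, 9.43 and 9.38 in MG7d and 6.32 and 6.05 in 2D7d, and since probes may read both, which copy moved is uncertain. ZNF823 had 9.99 and 9.96 in MG4d, 10.5 and 10.05 in MG7d and 7.29 and 7.61 in 2D7d, a log2 fold change of 2.52 ± 0.6 in MG4d and 2.82 ± 0.6 in MG7d (SE). ZNF667 (at least 3.61-fold) and ZNF480 (at least 4.61-fold), not detected in 2D7d, rose in MG4d, and ZNF800 rose by 2.14 ± 0.64. In MG7d the 6 largest rises also held ZNF25 (at least 2.94-fold), ZNF525 (at least 3.72-fold) and ZNF277, which had 9.5 and 9.14 in MG7d and 6.7 and 6.62 in 2D7d.

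Among the Matrigel falls, ZNF688 had 5.7 and 5.73 in MG4d, without detection, and 7.75 and 7.73 in 2D7d, and was at least 3.85-fold lower (adjusted p = 0.0153, limma). In MG7d it had 6.08 and 6.18 (-1.61 ± 0.36). ZNF362 had 7.08 and 7.26 in MG4d and 8.72 and 8.95 in 2D7d (-1.67 ± 0.37), while xenografts had 8.82 and 8.68. The fall of ZNF362 was thus not seen in xenografts, which overlap with 2D7d. ZNF500 had 6.95 and 6.55 in MG4d, 6.91 and 6.75 in MG7d and 8.28 and 8.41 in 2D7d. ZNF580 had 7.93 and 7.74 in MG4d, 7.78 and 8.01 in MG7d and 9.32 and 9.32 in 2D7d, and also fell in xenografts (8.03 and 8.03). ZNF837 fell in MG4d, ZNF324 in MG7d, and ZNF517, ZNF655 and ZNF48 at both times.

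Between the Matrigel times 1 ZNF gene rose (0.333%, against 0.738% of all genes) and 0 fell (0.164%). It was ZNF467, whose mouse counterpart acts in the choice between fat and bone cell fates. It had 8.6 and 8.34 in MG7d and 5.7 and 5.55 in MG4d, without detection at 4 days, and was at least 6.38-fold higher in MG7d (adjusted p = 0.0293, limma). Without any single Matrigel array it was not called. In the fit on 8 arrays 4 rose and 1 fell (1.33% and 0.333%, against 4.08% and 1.59% of all genes). On polyHEMA ZNF467 had 8.32 and 8.33 in PH7d and 7.34 and 8.58 in PH4d, which overlap. The day effect differed between Matrigel and polyHEMA by 2.48 on the log2 scale (adjusted p = 0.415, limma), and 0 of the 300 genes passed this test of the difference, with 8 at an unadjusted p under 0.05, in a fit without the replicate block. In xenografts ZNF467 had 5.2 and 5.55, without detection.

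PolyHEMA gave few calls. In PH4d 1 ZNF gene rose and 1 fell, against 2.58% and 1.82% of all genes, and in PH7d 3 rose and 0 fell, against 3.88% and 2.36%. Among members detected on both arrays of both groups 0 of 172 rose and 1 fell in PH4d, against 1.65% and 1.5% of all such genes, and 0 of 176 rose or fell in PH7d, against 2.6% and 2.03%. At an unadjusted p under 0.05 there were 44 in PH4d (14.7%, against 23.9% of all genes) and 31 in PH7d (10.3%, against 25.2%). The median log2 fold change was 0.40 and 0.35, beside 0.03 and 0.05 over all genes. The counts changed with the array left out. Without its replicate 2, 102 ZNF genes rose and 30 fell in PH4d (34% and 10%, against 20.1% and 17.5% of all genes), and 45 rose and 14 fell in PH7d (15% and 4.67%, against 13.5% and 12.3%). With both replicate 2 arrays left out 135 rose and 36 fell in PH4d (45% and 12%, against 25.5% and 20% of all genes), and 114 rose and 29 fell in PH7d (38% and 9.67%, against 24.5% and 17.9%). With both replicate 1 arrays left out 6 rose and 3 fell in PH4d (2% and 1%, against 5.91% and 3.33%), and 6 rose and 1 fell in PH7d (2% and 0.333%, against 6.08% and 3.45%). In each of these fits the lone array is assumed to vary like the groups that kept both arrays. Between PH7d and PH4d, 0 ZNF genes were called by limma, and 1 had an unadjusted p under 0.05, out of 122 of all genes. The replicates of PH4d and PH7d deviated together (correlation 0.87). With the replicate number as a block over the 4 polyHEMA arrays, 0 ZNF genes were called, against 11 of all genes. At an unadjusted p under 0.05 there were 10 ZNF genes, out of 583 of all genes.

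ZNF750 was the clearest polyHEMA gene. It encodes a regulator of epidermal differentiation, and its replicates moved together. It had 7.98 and 8.68 in PH4d, 8.78 and 8.51 in PH7d, 7.29 and 6.91 in xenografts and 5.16 and 5.59 in 2D7d, and was not detected in 2D7d, MG4d or MG7d. It was at least 4.5-fold higher in PH4d (adjusted p = 0.00237, limma), at least 5.58-fold higher in PH7d (adjusted p = 0.0011) and at least 1.92-fold higher in xenografts (adjusted p = 0.00782). Both polyHEMA calls held without any single array of the groups compared (adjusted p of 0.00141 to 0.0305), and the xenograft call was lost without 2D7d replicate 1 (adjusted p = 0.059) or xenograft replicate 1 (adjusted p = 0.0844). The other polyHEMA rises were ZNF467 in PH7d (1.92 ± 0.44, adjusted p = 0.0333, limma), though its 2D7d arrays lay apart at 5.88 and 6.92, and ZNF649 in PH7d, which had 6.88 and 6.3 in PH7d and 5.23 and 4.76 in 2D7d. ZNF174 fell in PH4d, with 7.09 and 7.41 against 8.31 and 8.42 in 2D7d (-1.11 ± 0.24, adjusted p = 0.0349, limma). The ZNF467 call in PH7d was lost without 2 of the 4 arrays (2D7d replicate 1 or PH7d replicate 1), and the ZNF649 and ZNF174 calls without 3 of 4. A second ZNF174 probe gave -1.4 in PH4d and no call (adjusted p = 0.0996).

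The split of the polyHEMA replicates ran along the xenograft difference, although it uses other arrays. Of the 87 ZNF genes that rose in xenografts, 84 (96.6%) were higher on replicate 1 of both polyHEMA groups, and all 21 that fell were higher on replicate 2 of both. Over all genes tested the shares were 84.6% and 94.7%. Across the 300 genes, the log2 fold change of xenografts over 2D7d and the difference between the PH4d replicates had a Pearson r of 0.91, and it was 0.79 across all 10970 genes, as a description, since genes share arrays and are no independent replicates. For MG7d over 2D7d it was 0.85 both across the members and across all genes. The number of probes detected and the raw signal moved with it, and their part in the ZNF differences was not tested. The raw median intensity of the members ranged from 155 to 164 on the 2D7d and polyHEMA replicate 2 arrays and from 219 to 282 on the other 8.

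**Figure D5:**
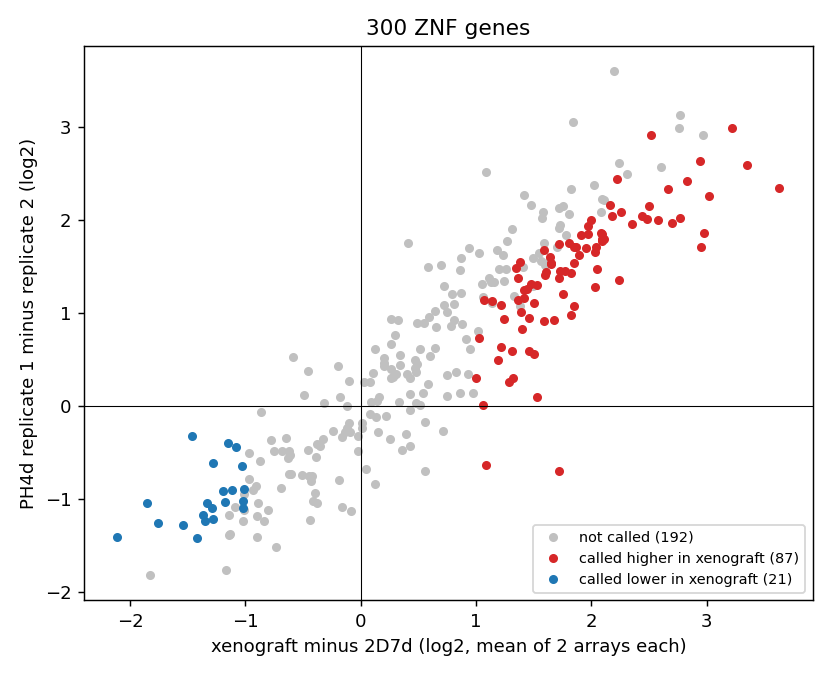
Each point is 1 of 300 ZNF genes, with the log2 fold change of xenografts over 2D7d on the horizontal axis and the difference between PH4d replicates 1 and 2 on the vertical axis. Of the 87 genes called higher in xenografts 85 lie above 0 on the vertical axis, and all 21 called lower lie below it.

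Across the comparisons with 2D7d, which share its 2 arrays, 146 of 300 members (48.7%) were called at least once, against 50.9% of all genes, and 154 were not. In 3 comparisons 11 rose (3.67%, against 4.68% of all genes in 3 or more) and 6 fell (2%, against 3.87%), and 0 did so in 4 or more (0.62% and 0.702% of all genes). Among those, ZNF217, an oncogene amplified in some breast cancers, had 9.67 and 9.75 in MG4d, 10.1 and 9.48 in MG7d, 9.9 and 8.99 in PH4d, 9.72 and 8.63 in PH7d, 9.5 and 9.57 in xenografts and 8.16 and 7.74 in 2D7d. It lay above 2D7d on all 10 other arrays, with log2 fold changes of 1.76, 1.84 and 1.59 (each ± 0.42) in MG4d, MG7d and xenografts and adjusted p-values of 0.0262 to 0.0312 (limma). ZNF175, ZNF667, ZNF286A and ZNF805 rose in the same 3 groups, though a second, dimmer ZNF667 probe gave 0.76, 1 and 0.37 in MG4d, MG7d and xenografts against 2.45, 2.58 and 2.09 by the first, and was not called. ZNF48 and ZNF580 fell in the same groups, and ZNF750 rose in PH4d, PH7d and xenografts.

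Members with known roles in chromatin or RNA differed in what they did. ZNF93, a repressor of LINE-1 elements, had 6.16 and 6.63 in xenografts and 6.05 and 5 in 2D7d, and was not called (adjusted p = 0.19, limma). A dimmer ZNF93 probe gave 1.52 in xenografts, also without a call (adjusted p = 0.0557, limma). In Matrigel that probe was called higher, with 2 in MG4d and 1.88 in MG7d (adjusted p = 0.036 and 0.0442, limma). ZNF274, which tethers SETDB1 to ZNF gene clusters, had 10.6 and 10.36 in xenografts and 9.67 and 9.29 in 2D7d and rose, at 2.01-fold just past the limit. Its second probe gave 0.34 (adjusted p = 0.291). ZNF644, a partner of the EHMT1 and EHMT2 methyltransferases, rose in MG4d (1.32 ± 0.32), MG7d (1.17 ± 0.32) and xenografts (1.19 ± 0.32). Its second probe gave 1.37, 1.32 and 0.75 and passed in none (adjusted p = 0.0879, 0.0914 and 0.283, limma). ZNF143, an activator that sits at promoters and loop anchors, had 7.98 and 7.99 in MG4d, 7.37 and 7.28 in xenografts and 6.52 and 6.4 in 2D7d, and was called only in MG4d. ZNF451, a SUMO ligase, had 9.63 and 9.3 in MG7d, 9.23 and 9.16 in xenografts and 7.05 and 7.03 in 2D7d, and rose in both, while a second probe gave 2 in MG7d without a call (adjusted p = 0.0586) and 2.18 in xenografts with one. ZNF292 rose in MG4d by at least 1.36-fold, and ZNF326, a splicing regulator, by 2.36-fold.

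Others of this kind passed no test. ZNF148 had 10.41 and 10.11 in xenografts and 7.72 and 6.85 in 2D7d (2.97 ± 1.08, adjusted p = 0.0547, limma). ZNF652, a repressor studied in breast cancer, had 11.76 and 11.69 in xenografts and 10.11 and 10.23 in 2D7d (adjusted p = 0.0548, limma). ZNF384 had 7.08 and 7.36 in xenografts and 8.25 and 8.47 in 2D7d. All 3 were called in the fit on 8 arrays. ZNF410, an activator of CHD4, ranged from 8.18 to 9.1 over the 12 arrays, and ZNF746, a parkin substrate, from 9.81 to 10.45.

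Ranges over the 12 arrays differed among ZNF-named proteins that act outside DNA binding, at 2.82 for ZNF451 and 1.97 for ZNF326. ZNF207, a spindle checkpoint protein, had 11.73 and 11.76 in MG4d, 11.37 and 11.12 in xenografts and 10.91 and 10.89 in 2D7d, with a range of 0.87 over the 12 arrays. A second ZNF207 probe was called higher in MG4d (1.07, adjusted p = 0.0201, limma). ZNF598, a ubiquitin ligase that senses collided ribosomes, had a range of 1.06, and ZNF622, a factor of ribosome maturation, of 0.76. A dimmer ZNF598 probe ran from 6.98 to 8.74 and was called lower in xenografts (-1.55, adjusted p = 0.0326, limma). By the brightest probe, the smallest ranges belonged to ZNF2 (0.42), ZNF275 (0.54), ZNF212 (0.56), ZNF331 (0.6) and ZNF473 (0.63), the last a protein of histone messenger RNA processing. A dimmer ZNF331 probe, near background, ran from 4.62 to 6.52. It was called higher in MG4d (1.55, adjusted p = 0.0422, limma) and xenografts (1.7, adjusted p = 0.0291). Dimmer probes ran from 5.78 to 6.89 for ZNF473 and from 4.63 to 5.57 for ZNF2, without a call. These small ranges are thus those of the brightest probe. The largest were those of ZNF350 (4.6), ZNF702P (4.13), ZNF750 (3.88), ZNF33B (3.77) and ZNF25 (3.77).

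Probe choice mattered among the brightest members. The 10 brightest probes were those of ZNF674, ZNF876P, ZNF430, ZNF549, ZNF14, ZNF486, ZNF428, ZNF598, ZNF394 and ZNF207. ZNF14 had 12.85 and 13.17 in xenografts and 11.19 and 10.78 in 2D7d by its brightest probe (2.03 ± 0.52, adjusted p = 0.0254, limma), but -0.76 by a dimmer probe (adjusted p = 0.0614). ZNF394 had 2.09 ± 0.57 by its brightest probe and -0.94 by a dimmer one (adjusted p = 0.024, under 2-fold). ZNF549 kept its direction, with 2.22 and 1.27. Of 63 members with a second probe above background, 25 were called in xenografts by the first, and the second had the same sign for 23 and was called for 9. For ZNF14 and ZNF394 the direction therefore cannot be given as that of the gene.

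KRAB zinc finger proteins act through corepressors, of which 32 were tested. Of these, 5 rose and 2 fell in xenografts (15.6% and 6.25%, against 16.5% and 14.6% of all genes), with a median log2 fold change of 0.17. In Matrigel 5 rose and 1 fell in MG4d (15.6% and 3.12%, against 10.2% and 11.5% of all genes) and 6 rose and 0 fell in MG7d (18.8% and 0%, against 10.8% and 10.3%), with medians of 0.47 and 0.40. TRIM28 had 9.63 and 9.71 in xenografts, 10.13 and 10.38 in MG4d, 9.57 and 9.95 in MG7d and 10.92 and 11.39 in 2D7d, a log2 fold change of -1.49 ± 0.54 in xenografts that did not pass (adjusted p = 0.0564, limma). SETDB1 had 8.17 and 8.08 in xenografts and 8.34 and 8.17 in 2D7d. ATRX, a chromatin remodeler, rose in MG7d (adjusted p = 0.0497, limma) and xenografts (adjusted p = 0.0414), with 7.28 and 7.25 in xenografts and 5.03 and 4.83 in 2D7d. It was not detected in 2D7d, where the lowest detected levels were 6.27 and 6.05, so the size of its rise was not measured. Among the other zinc finger families, 4 of 10 ZFP genes rose in xenografts and 0 fell, 4 of 10 ZSCAN genes rose and 1 fell, 2 of 7 ZKSCAN genes and 5 of 30 ZBTB genes rose and 0 fell, and 4 of 8 KLF genes rose. The median was 1.2 over ZFP, 0.71 over ZSCAN, 0.72 over ZKSCAN, 0.07 over ZBTB and 0.83 over KLF genes.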

How the data were processed

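RNA of 12 JIMT1 samples (6 groups, 2 biological replicates each) was read on Illumina HumanHT-12 arrays, and the number of arrays limits the precision. The authors deposited a non-normalized table with, for each of 47323 probes, 30113 of them with 1 gene symbol, an intensity on a linear scale and a detection p-value against the negative controls. The authors also deposited log2-like values processed with lumi. As 81.4% of the rows of that second table stand under another probe ID than their match by rank, it served only as an alternative.

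Background correction, quantile normalization and the log2 step were done by neqc (offset 16, limma 3.58.1, R 4.3.3), and the code was tested on simulated data. Probes that both arrays of some group detected (p under 0.01) were kept, and the brightest stood for each of 10970 genes, named by the platform annotation. The linear model had 6 group means over 12 arrays (lmFit and eBayes, 6 residual and 3.17 prior degrees of freedom), with Benjamini-Hochberg adjustment. For a gene undetected on both arrays of a group, folds are bounds against the lowest detected signal of each array, or the probe's own where higher. The named genes were those with the 6 largest rises and falls called per comparison, the brightest, the least and most variable, those called most often, those with known roles and those with the widest polyHEMA split. ZNF626, other members of the ZNF577 run, TRIM28, SETDB1 and ATRX were named after their values were seen. Members and lists were chosen with earlier results of these data known. Promoters came from RefSeq (GRCh38.p14). Alternatives covered background, offset, scaling, filter, replicate block, array weights and left-out arrays. Protein domains were not analysed here.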

Additional observations from a re-analysis of the deposited data

How the results depend on the processing

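The 48 ZNF genes called in MG4d, 52 in MG7d and 108 in xenografts moved with the spread estimate and the filter. With no background correction 24, 34 and 66 were called, with the values processed by the authors 7, 10 and 26, with no filter on dim probes 25, 18 and 32, and among genes detected on all 12 arrays 25, 31 and 57. With array weights 133, 144 and 167 were called, and the fit on the 8 arrays outside polyHEMA gave the same 3 counts. The 2 calls in PH4d and 3 in PH7d became 1 and 1 with the processed values and with array weights, and 0 and 0 with only the arrays of the compared groups. In PH4d the count was 1 with no background correction, with an offset of 50 and among genes detected on all 12 arrays, and in PH7d 1 with no filter and 0 among genes detected on all 12 arrays. With both polyHEMA replicate 2 arrays left out it was 171 in PH4d and 143 in PH7d, and with both replicate 1 arrays left out 9 and 7. The 1 call between MG7d and MG4d became 2 with median scaling, 0 among genes detected on all 12 arrays and 5 with array weights or 8 arrays. The causes were not tested. Besides the main fit, calls over all genes were counted only with all 8 arrays and in fits that left out or blocked only polyHEMA arrays. The other counts of this section cannot be set against all genes. Leaving out 1 array gave 0 to 0 in MG4d and MG7d, 0 to 2 in xenografts, 1 to 132 in PH4d, 1 to 59 in PH7d and 0 to 0 between the times of either culture. Within the 8 arrays it gave 120 to 147 in MG4d (131 and 142 without an MG4d array), 134 to 169 in MG7d (137 and 159 without an MG7d array), 152 to 175 in xenografts and 5 to 10 between MG7d and MG4d. The settings that left out both arrays of a polyHEMA replicate, and 1 of the 8 arrays, were chosen after seeing the data. The direction turned for ZNF14 (-0.76) and ZNF394 (-0.94) in xenografts with another probe, and for no other named call under the alternatives run. The median log2 fold change of the ZNF genes stayed above 0 in all comparisons with 2D7d, but only barely in some polyHEMA fits. It lay between 0.27 and 1.16 in xenografts, 0.20 and 0.83 in MG4d and 0.22 and 1.03 in MG7d. In polyHEMA it lay between 0.01 and 0.82 in PH4d and 0.01 and 0.72 in PH7d. Among members detected on both arrays of both groups it was 0.22 in xenografts, 0.15 in MG4d, 0.20 in MG7d, 0.11 in PH4d and 0.10 in PH7d.

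The replicate numbers were not taken to pair all samples, since the correlation of replicate deviations ranged from -0.12 to 0.87 over pairs of groups, but it was 0.87 between PH4d and PH7d and 0.37 to 0.45 between these and 2D7d or MG7d. A block over the 4 polyHEMA arrays, chosen after seeing the data, gave 0 ZNF calls between PH7d and PH4d. With the number as a replicate block, the calls were 147 in xenografts, 92 in MG4d and 120 in MG7d, beside 9 in PH4d and 7 in PH7d, and all 82 calls of named genes held. Of these 82, 60 held with no background correction, 69 with an offset of 50, 66 with median scaling and 28 with the processed values. With 2 arrays per group, and ZNF genes near background in 2D7d, folds of undetected genes are bounds only.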
